A study of Mus musculus with 14 samples.

Results

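Nuclear receptors are transcription factors, most of which bind small lipophilic ligands. This account covers 41 genes of the family in mouse jejunum, chosen by name and function from the receptor superfamily, with receptors of the circadian clock and of the immediate early response not included. A single-symbol probe set was found for 39 of the 41, and 38 passed the limit on dim genes and were tested, among 18010 tested genes. Nr1h2 and Nr2e3 are not analysed here, and Nr0b1 lay below the limit. Where a gene had several probe sets, the one with the highest mean was used. The jejunal RNA came from 7 mice carrying LRH-1 K289R and 7 mice carrying wild-type LRH-1 (WT), with 1 array per sample. All mice were 19 to 21 weeks old, ate at will and were sampled at 7 am. The labels name no sex, strain, litter, driver or clone, and do not say whether the allele was on both chromosomes.

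A typical nuclear receptor has a zinc-finger domain that reads a short DNA motif and a ligand-binding domain that recruits coactivators or corepressors. Many pair with a retinoid X receptor (RXR), while LRH-1, encoded by Nr5a2, binds its site as a single molecule. In the small intestine the family senses bile acids, oxysterols, fatty acids, vitamin A and D metabolites, steroids and foreign compounds, and HNF4 factors maintain the enterocyte programme. In K289R an arginine replaces a lysine of LRH-1 that serves as an acceptor for the small protein modifier SUMO. The comparison asks whether transcript levels across the receptor family differed between mice carrying K289R and mice carrying wild-type LRH-1.

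Tissue markers were those of small intestine. The 8 enterocyte markers, such as Alpi and Sis, had list means on single arrays of 13.19 to 13.38 in K289R and 13.15 to 13.38 in WT on the log2 intensity scale. The 3 tested pancreatic acinar markers had list means of at most 7.41 in K289R and 7.30 in WT. Fabp6, an ileal bile acid binding protein, stood between 9.18 and 12.52 on K289R replicates 2 and 7 and WT replicates 1 and 6, and at 6.63 or less on the other 10 arrays. The counts of receptor genes were repeated without these 4 arrays. Of the 8 smooth muscle markers 7 were higher in K289R, with a median of 0.25, list means of 10.57 to 11.10 in K289R and 10.59 to 10.77 in WT, and 0 past the threshold. At an unadjusted p under 0.05 there were 6 of the 8 (75.0%, against 8.48% of all genes), and in 2 the genotypes did not overlap, as in 0.167% of all genes. The smooth muscle list mean thus differed by genotype, so a fit with it as a covariate cannot fully separate it from genotype. The 6 fibroblast markers were all higher, 0 of them past the threshold and 4 (66.7%) at an unadjusted p under 0.05, with a median of 0.25 and list means of 9.23 to 9.63 in K289R and 9.07 to 9.54 in WT. In bulk tissue, fewer cells of a type and less RNA per cell cannot be told apart. The number of arrays limits the precision.

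None of the 38 tested nuclear receptor genes differed between K289R and WT past the threshold of 0.05 on limma's adjusted p, and the lowest adjusted p was 0.385. Over all genes 0.0444% passed. At an unadjusted p under 0.05 there were 4 receptor genes, or 10.5%, against a background of 8.48% of all genes. Rarb and Nr0b2 were the 2 higher in K289R, where 4.43% of all genes were, and Esrra and Rxra the 2 lower, where 4.05% of all genes were. These shares are close to the background. In no receptor gene did the 7 K289R arrays lie wholly apart from the 7 WT arrays, which 0.167% of all genes did.

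The receptor differences were small. They ran from -0.18 for Esrra to 0.25 for Nr0b2 on the log2 scale, with a median of -0.033, against -0.0039 for all genes tested. Of the 38 genes 28, or 73.7%, were lower in K289R, compared with 52.0% of all genes. The median absolute difference was 0.05 for the receptors and 0.06 for all genes. For 33 of the 38 the whole 95% interval lay within a 1.25-fold change either way. The 5 with wider limits were Nr5a2, Nr0b2, Pparg, Nr1i2 and Nr1i3. Without the 4 arrays with high Fabp6, 0 receptor genes passed and 4 had an unadjusted p under 0.05.

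**Figure D1:**
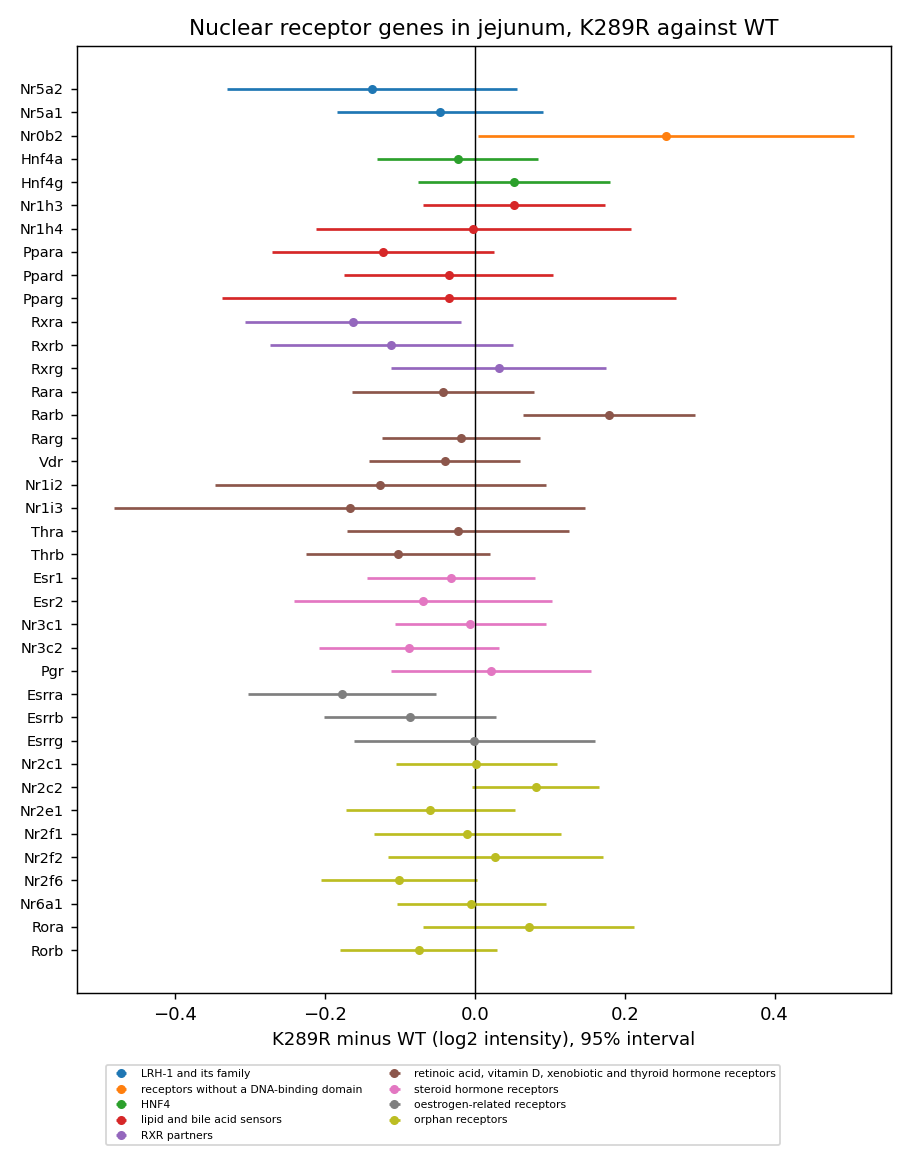
Difference in log2 intensity, K289R minus WT, of the 38 tested nuclear receptor genes, with limma's 95% intervals (7 arrays per genotype), coloured by role. The intervals of Rarb and Nr0b2 lie above 0, those of Esrra and Rxra below it, and the other 34 cover 0.

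LRH-1 itself was read by 1 probe set of Nr5a2. The K289R arrays ran from 9.83 over a median of 10.25 to 10.39, and the WT arrays from 10.06 over a median of 10.36 to 10.60. The genotypes overlapped over most of their range, with 2 K289R arrays below the lowest WT array. The difference was -0.14 (SE 0.092, adjusted p from limma 0.685). With the enterocyte list mean as a covariate it was -0.17 (unadjusted p = 0.0193 and adjusted p = 0.449 from limma). In limma's unadjusted test Nr5a2 missed 0.05 in the other 24 of 25 alternative fits, 14 of which left out 1 array. Nr5a1, the gene of the steroidogenic factor SF-1 and the closest relative of LRH-1, averaged 7.60 ± 0.13 in K289R and 7.64 ± 0.11 in WT (SD, n = 7 each). Its difference of -0.05 had a 95% interval of -0.18 to 0.09.

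Nr0b2 and Nr0b1 encode SHP and DAX-1, which lack the usual DNA-binding domain and repress other receptors, LRH-1 among them. Nr0b2 had the largest difference of the family. Its K289R arrays ran from 7.53 over a median of 7.79 to 8.13, and its WT arrays from 7.28 over a median of 7.62 to 8.05. The genotypes overlapped, 6 of 7 K289R arrays being above the WT mean and 1 above the highest WT array. The difference was 0.25 (SE 0.119, 95% interval 0.0042 to 0.51, adjusted p from limma 0.576), and the exact permutation p, 2-sided over all splits of 7 against 7, was 0.0868. In limma's unadjusted test it missed 0.05 in 13 of 25 alternative fits, 8 of which left out 1 array. Without the 4 arrays with high Fabp6 the difference was 0.265 (adjusted p from limma 0.704), and with array weights it was 0.17 (adjusted p from limma 0.578). Nr0b1 averaged 5.69 ± 0.09 in K289R and 5.77 ± 0.08 in WT (SD, n = 7 each), below the limit of 6.25, and was not tested.

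The Nr0b2 promoter is shown because this gene is a textbook target of LRH-1. The window reaches from 250 bases before to 50 after the start in RefSeq's table (GRCm38.p6, chr4:133553126-133553425, plus strand). Capitals mark AAGGCCA, a variant of the extended site AAGGTCA of LRH-1, which was added to the search after this window had been read.
Nr0b2: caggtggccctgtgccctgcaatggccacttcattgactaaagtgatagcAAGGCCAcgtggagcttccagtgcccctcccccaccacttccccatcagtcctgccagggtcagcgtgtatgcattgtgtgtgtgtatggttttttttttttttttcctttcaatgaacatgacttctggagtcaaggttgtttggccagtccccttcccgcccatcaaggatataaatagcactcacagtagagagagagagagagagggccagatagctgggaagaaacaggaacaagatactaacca
The match starts 200 bases before the start site. On either strand AAGGCCA occurs in 6.20% of all 32851 windows and AAGGTCA in 4.72%. Of the 58 windows of the 37 receptor genes found in the table, 2 held AAGGCCA (Esr1 and Nr0b2, 3.45%) and 3 held AAGGTCA (Nr6a1, Rxra and Rxrg, 5.17%). The longer forms CAAGGTCA and TCAAGGTCA were in 0 of the 58, against 1.56% and 0.423% of all windows. The core motif AGGTCA, contained in AAGGTCA and in those longer forms, was in 11 of the 58 (19.0%) and in 16.3% of all. The Nr5a2 window held AGGTCA on the plus strand of the window, 64 bases before the start. A match describes letters only, and no match says only that these letters are not in this window.

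HNF4α and HNF4γ drive enterocyte genes, and 0 of the 2 passed. Hnf4a averaged 12.34 ± 0.08 in K289R and 12.36 ± 0.08 in WT (SD, n = 7 each), with a difference of -0.02 and a 95% interval of -0.13 to 0.08. Hnf4g averaged 12.82 ± 0.12 in K289R and 12.77 ± 0.09 in WT, with a difference of 0.05 and an interval of -0.08 to 0.18. The genotypes overlapped in both genes, with 1 K289R array below the lowest WT array in Hnf4a and 1 above the highest in Hnf4g. The sign for Hnf4a turned in 2 of 25 alternative fits and that for Hnf4g in 0.

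The lipid and bile acid sensors were likewise close between genotypes. Of 5 tested genes 1 was higher and 4 were lower, with 0 at an unadjusted p under 0.05. Nr1h4, the bile acid receptor FXR, averaged 9.08 ± 0.17 in K289R and 9.08 ± 0.24 in WT (SD, n = 7 each), and its difference had a 95% interval of -0.21 to 0.21. Nr1h3, the oxysterol receptor LXRα, had a difference of 0.05 (95% interval -0.07 to 0.17). Ppara, the fatty acid receptor of oxidation genes, ran from 9.15 over a median of 9.32 to 9.38 in K289R and from 9.18 over a median of 9.37 to 9.67 in WT. All 7 K289R arrays lay below the WT mean but 6 of them within the WT range, and WT replicates 6 and 7 were the highest arrays. The difference was -0.12 (SE 0.070, adjusted p from limma 0.639). With the smooth muscle list mean, itself higher in K289R, in the model it was -0.21 (adjusted p from limma 0.289). Without the 4 arrays with high Fabp6 it was -0.06 (adjusted p from limma 0.826). Ppard, a broadly expressed fatty acid receptor, differed by -0.04 (95% interval -0.17 to 0.10). Pparg, known from fat cells and also present in epithelium, differed by -0.03 with a wide interval of -0.34 to 0.27.

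The RXRs form dimers with many of the lipid, vitamin, thyroid hormone and xenobiotic receptors. Rxra ran from 10.05 over a median of 10.37 to 10.46 in K289R and from 10.28 over a median of 10.51 to 10.60 in WT. All 7 K289R arrays were below the WT mean, but only 2 were below the lowest WT array. The difference was -0.16 (SE 0.068, 95% interval -0.31 to -0.02, exact permutation p = 0.0361, adjusted p from limma 0.520). In limma's unadjusted test it passed 0.05 in 21 of 25 alternative fits. The 4 that missed it left out K289R replicate 3 (-0.12), K289R replicate 6 (-0.15), WT replicate 1 (-0.15) or WT replicate 4 (-0.14). With the smooth muscle list mean in the model the difference was -0.26 (SE 0.085, adjusted p from limma 0.183), the lowest adjusted p of any receptor gene in the alternative fits. That list mean was itself higher in K289R. Its r with Rxra was 0.760 in K289R and -0.539 in WT, whereas the model takes the same relation in both. Rxrb averaged 8.83 ± 0.19 in K289R and 8.94 ± 0.10 in WT (SD, n = 7 each), with a difference of -0.11 and an interval of -0.27 to 0.05. Rxrg, best known from muscle and brain, differed by 0.03 (95% interval -0.11 to 0.17).

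One of the Rxra promoter windows held AAGGTCA (RefSeq, GRCm38.p6, chr2:27709042-27709341, plus strand). Windows of Nr6a1 and Rxrg held it too but are not shown, and of these 3 genes only Rxra had an unadjusted p under 0.05 with limma. The share of receptor windows with it was 5.17%, against 4.72% of all windows. Whether LRH-1 binds there was not tested. Capitals mark AAGGTCA, which starts 49 bases before the start site.
Rxra: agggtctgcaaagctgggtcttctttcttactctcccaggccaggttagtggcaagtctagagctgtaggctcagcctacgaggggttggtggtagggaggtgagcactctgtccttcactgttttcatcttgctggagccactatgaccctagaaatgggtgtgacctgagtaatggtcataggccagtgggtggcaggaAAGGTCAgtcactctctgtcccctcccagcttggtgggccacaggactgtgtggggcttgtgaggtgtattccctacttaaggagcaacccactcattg
The window of the other Rxra start held 0 matches. A second AGGTCA, on the opposite strand, starts 87 bases before the start site.

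Among receptors for retinoic acid, vitamin D, foreign compounds and thyroid hormone, 1 gene was higher and 7 were lower, and 1 had an unadjusted p under 0.05. That gene was Rarb, a retinoic acid receptor whose own gene is induced by retinoic acid. It ran from 7.93 over a median of 8.10 to 8.27 in K289R and from 7.84 over a median of 7.94 to 7.98 in WT. All 7 K289R arrays exceeded the WT mean and 5 exceeded the highest WT array, while the other 2 lay within the WT range. The difference was 0.18 (SE 0.054, 95% interval 0.06 to 0.29), a fold of 1.13. It had the smallest p of the family (unadjusted p from limma 0.00424, adjusted p 0.385, exact permutation p = 0.00758). It kept an unadjusted p under 0.05 in 25 of 25 alternative fits, with differences from 0.15 to 0.21. Rarb varied with the fibroblast markers, which were higher in K289R as given above. Over deviations of the 14 arrays from their genotype mean it had r = 0.667 with the fibroblast list mean (permutation p = 0.00164, adjusted 0.0579 over 418 relations) and rho = 0.697 (permutation p = 0.00283, adjusted 0.159). Its r was 0.555 without the 2 farthest arrays, 0.798 in K289R and 0.748 in WT. With the macrophage list it was 0.629 (permutation p adjusted 0.161), and with the endothelium list 0.679 (permutation p adjusted 0.143). For 4 other receptor genes r with the fibroblast list was beyond 0.7 either way. These were Rora (r = 0.849), Nr2f2 (r = 0.780), Rxrg (r = -0.765) and Thra (r = -0.734). Between genotypes they differed by 0.07, 0.03, 0.03 and -0.02 in that order. Arrays fell into 2 sets by endothelium markers (below), within which Rarb had r = 0.229 (6 arrays) and 0.313 (8 arrays) with the fibroblast list. The part of these markers in the Rarb difference was not tested.

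The Rarb promoter carries a well-known retinoic acid response element, a direct repeat of 2 motifs with 5 bases between them. The window is from RefSeq (GRCm38.p6, chr14:16575427-16575726, minus strand), with GGTTCA, the 5 bases and AGTTCA in capitals.
Rarb: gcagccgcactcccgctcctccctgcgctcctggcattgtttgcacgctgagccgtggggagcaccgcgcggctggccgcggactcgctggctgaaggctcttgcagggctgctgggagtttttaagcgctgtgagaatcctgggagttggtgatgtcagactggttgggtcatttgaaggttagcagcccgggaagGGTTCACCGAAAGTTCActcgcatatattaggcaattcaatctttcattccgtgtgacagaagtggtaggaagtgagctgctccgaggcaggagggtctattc
The element starts 53 bases before the start site. This arrangement of letters occurs in 2 of all 32851 windows (0.006%), and among the 58 windows of receptor genes in that of Rarb only. The letters searched for are those of the Rarb element itself and were not among the planned motifs. The match in Rarb was thus fixed in advance. Direct repeats of AGGTCA with 1 or 4 bases between were in 0 of the 58 windows, against 0.04% and 0.015% of all.

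Other retinoic acid receptors were level. Rara differed by -0.04 (95% interval -0.16 to 0.08) and Rarg by -0.02 (95% interval -0.12 to 0.09). The related list of retinoic acid targets had 7 tested genes, 5 higher and 2 lower, Rarb itself among them, with a median of 0.04. Cyp26b1, which degrades retinoic acid, differed by 0.13 (SE 0.083, adjusted p from limma 0.670). Crabp2, a carrier of retinoic acid, differed by -0.13 (SE 0.070, adjusted p from limma 0.628).

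Vdr, the vitamin D receptor of calcium absorption, averaged 11.69 ± 0.10 in K289R and 11.73 ± 0.03 in WT (SD, n = 7 each). Its WT arrays lay close together, between 11.69 and 11.78, whereas the K289R arrays ran from 11.50 to 11.79. The difference was -0.04 (95% interval -0.14 to 0.06). With the smooth muscle list mean, itself higher in K289R, in the model it was -0.13 (adjusted p from limma 0.275). Nr1i2 and Nr1i3 encode PXR and CAR, the sensors that induce drug-metabolising enzymes. Nr1i2 ran from 10.77 over a median of 10.95 to 11.54 in K289R and from 10.98 over a median of 11.12 to 11.40 in WT. Its difference was -0.13 (SE 0.105), -0.21 (adjusted p from limma 0.362) without K289R replicate 5, and -0.06 (adjusted p from limma 0.901) without the 4 arrays with high Fabp6. Nr1i3 ran from 9.50 over a median of 10.14 to 10.27 in K289R and from 9.55 over a median of 10.23 to 10.50 in WT, with a difference of -0.17 (SE 0.149). Both spans were wide and the genotypes overlapped.

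The thyroid hormone receptor genes did not pass either. Thrb ran from 9.02 over a median of 9.09 to 9.23 in K289R and from 9.08 over a median of 9.18 to 9.44 in WT. With 6 of 7 K289R arrays below the WT mean and 3 below the lowest WT array, the difference was -0.10 (SE 0.058, exact permutation p = 0.0822, adjusted p from limma 0.639). Thra, whose locus overlaps that of another nuclear receptor gene on the opposite strand, differed by -0.02 (95% interval -0.17 to 0.13).

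Steroid receptor genes differed little. Nr3c1, the glucocorticoid receptor, averaged 10.60 ± 0.08 in K289R and 10.60 ± 0.07 in WT (SD, n = 7 each), with an interval of -0.11 to 0.09. Nr3c2, the mineralocorticoid receptor, ran from 9.03 over a median of 9.09 to 9.26 in K289R and from 9.07 over a median of 9.22 to 9.39 in WT. Its difference was -0.09 (SE 0.057, exact permutation p = 0.130, adjusted p from limma 0.679), and a second, dim Nr3c2 probe set differed by 0.01. The oestrogen receptor genes Esr1 and Esr2 differed by -0.03 (95% interval -0.14 to 0.08) and -0.07 (95% interval -0.24 to 0.10). Pgr, the progesterone receptor, averaged 6.64 ± 0.12 in K289R and 6.62 ± 0.11 in WT (SD, n = 7 each), near the limit for dim genes.

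The oestrogen-related receptors have no known natural ligand of the steroid kind, and Esrra is known for driving mitochondrial genes. Esrra ran from 9.998 over a median of 10.16 to 10.31 in K289R and from 10.19 over a median of 10.33 to 10.49 in WT. All 7 K289R arrays were below the WT mean and 5 below the lowest WT array. The difference was -0.18 (SE 0.059, 95% interval -0.30 to -0.05), a fold of 0.884. It had an exact permutation p of 0.00874 and an adjusted p of 0.413 with limma. As for Rarb, the unadjusted p was under 0.05 in 25 of 25 alternative fits, with differences from -0.20 to -0.15. With the enterocyte mean as a covariate it was -0.16 (SE 0.045, adjusted p from limma 0.306). Esrrb ran from 6.88 over a median of 7.15 to 7.24 in K289R and from 7.14 over a median of 7.19 to 7.34 in WT, with a difference of -0.09 (SE 0.054, adjusted p from limma 0.670). Esrrg was level, at 8.27 ± 0.17 in K289R and 8.27 ± 0.12 in WT (SD, n = 7 each).

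**Figure D2:**
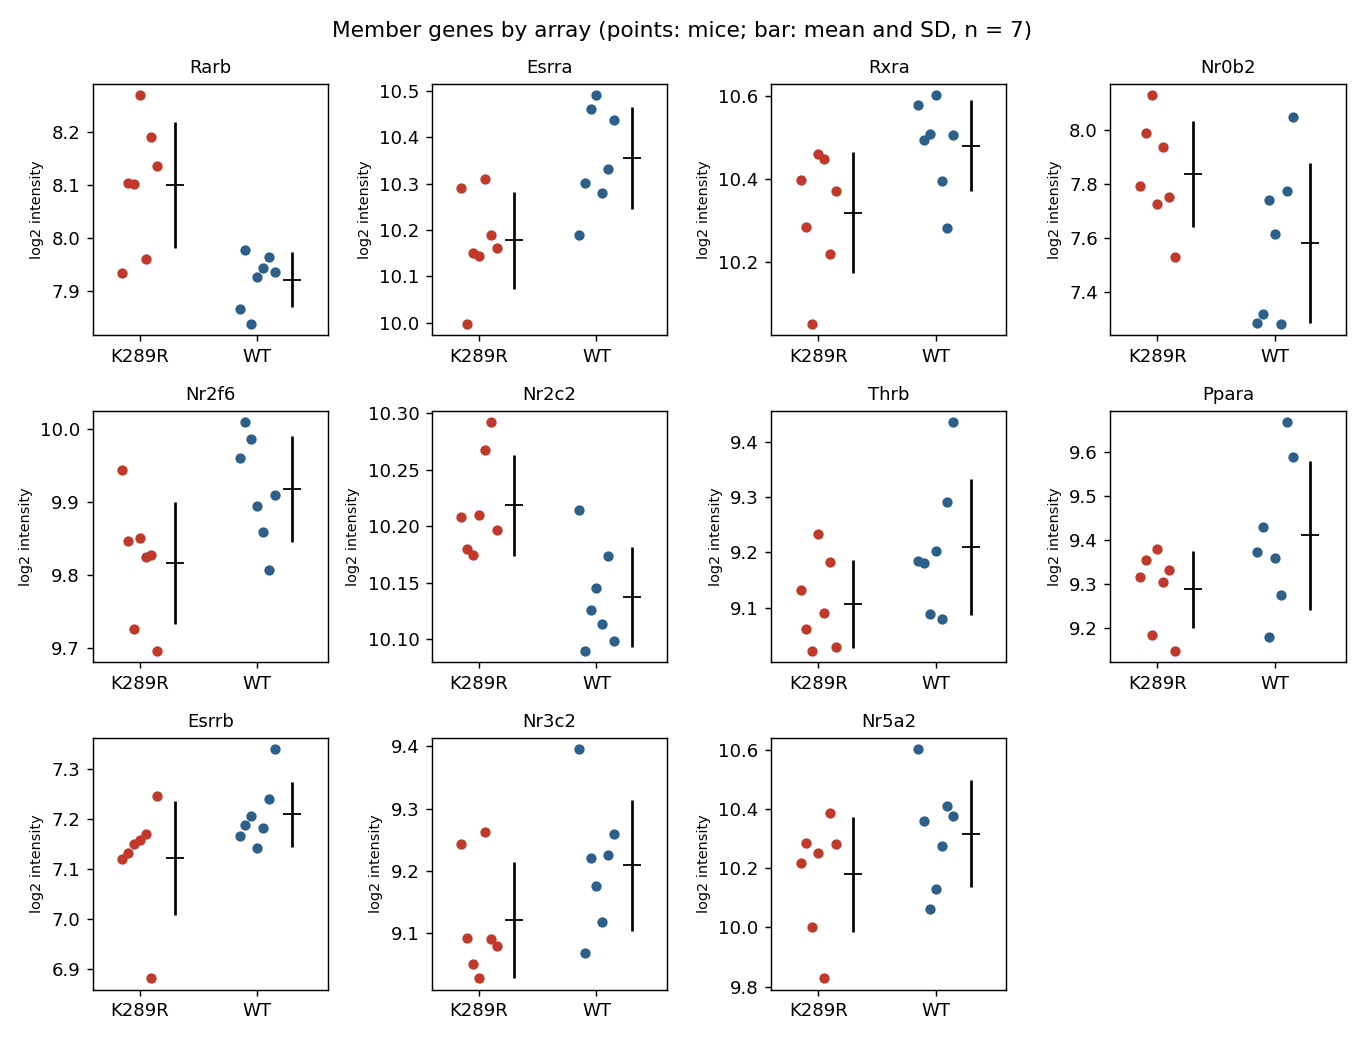
Log2 intensity of Nr5a2 and of the 10 receptor genes with the smallest p, by array, K289R left of WT. Points are mice and bars the mean and SD of 7, and the vertical scale differs between genes. Most K289R arrays of Rarb lie above and most of Esrra below the WT arrays, yet the genotypes overlap in every gene shown.

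Of the 9 tested orphan receptors 4 were higher and 5 lower in K289R. Nr2c2, the repressor TR4, had the smallest spread between mice of the family. It ran from 10.17 over a median of 10.21 to 10.29 in K289R and from 10.09 over a median of 10.13 to 10.21 in WT, with all 7 K289R arrays above the WT mean. The difference of 0.08 (SE 0.040) had an exact permutation p of 0.00699, while limma, which pools the spread over genes, gave an unadjusted p of 0.0586 and an adjusted p of 0.604. Nr2f6, a COUP-TF relative that acts mainly as a repressor, ran from 9.70 over a median of 9.83 to 9.94 in K289R and from 9.81 over a median of 9.91 to 10.01 in WT. Its difference was -0.10 (SE 0.049, exact permutation p = 0.0338, adjusted p from limma 0.600). Nr2f1 and Nr2f2, the COUP-TFs of mesenchyme and other tissues, differed by -0.01 and 0.03. Nr2c1, the TR2 partner of TR4, differed by 0.0018 and Nr6a1, the germ cell nuclear factor gene, by -0.0045. Rora and Rorb, the retinoid-related orphan receptors, differed by 0.07 and -0.08, and Nr2e1, known from neural stem cells, by -0.06. The adjusted p values of these 7 genes were between 0.684 and 0.994 with limma.

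Besides Nr5a2, Rxrg, Nr1i3 and Esrrg lie on chromosome 1. In the order of 1053 tested genes of that chromosome they were 150, 176 and 324 places from Nr5a2, and none passed the threshold.

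Spread between mice of 1 genotype varied widely among the receptors. The median within-genotype SD was 0.11 for the receptors and 0.13 for all genes. It was 0.32 for Nr1i3, at the 97.5th percentile of tested genes, 0.31 for Pparg and 0.25 for Nr0b2. The low end was 0.044 for Nr2c2, 0.071 for Nr6a1 and 0.073 for both Nr3c1 and Vdr. These 3 genes with the widest spread also had the largest standard errors, from 0.119 for Nr0b2 to 0.149 for Nr1i3.

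Several receptors varied together with marker lists from mouse to mouse, some with the enterocyte list. Deviations from the genotype mean were compared with those of the enterocyte list mean over the 14 arrays, and p-values come from 100000 permutations of arrays within genotype. In all 418 relations were computed, for 38 genes and 11 marker lists. Of these 20 had an r beyond 0.7 either way, 6 with the enterocyte list, and 5 passed an adjusted p of 0.05 by r and 0 by rho. Nr1i3 had r = 0.842 (permutation p = 0.00046, adjusted 0.0435) and rho = 0.886 (permutation p = 0.00016, adjusted 0.0502). Without the 2 arrays farthest from the list's median r was 0.845, and it was 0.664 in K289R and 0.962 in WT. Nr1h4 ran the opposite way, with r = -0.829 (permutation p = 0.00037, adjusted 0.0435) and rho = -0.807 (permutation p = 0.00051, adjusted 0.0533). Without the 2 farthest arrays its r was -0.693, with -0.904 in K289R and -0.788 in WT.

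Nr5a2 shared the direction of Nr1h4. It had r = -0.768 (permutation p = 0.00232, adjusted 0.0693) and rho = -0.684 (permutation p = 0.00811, adjusted 0.169), with r = -0.558 without the 2 farthest arrays. Esrra had r = 0.826 (permutation p = 0.0012, adjusted 0.0579) and rho = 0.710 (permutation p = 0.0103, adjusted 0.205), with r = 0.768 without the 2 farthest arrays. Nr1i2 (r = 0.767, permutation p adjusted 0.0579, rho = 0.701, adjusted 0.159) and Thra (r = 0.769, permutation p adjusted 0.0761, rho = 0.767, adjusted 0.159) went the same way as Esrra. After adjustment 2 of these 6 relations passed 0.05 by r and 0 by rho. The 6 genes were picked after the values were seen, and the levels compared come from the same arrays and share their normalization. With the distal small intestine list, which holds Fabp6, all 6 ran the opposite way. Its r was -0.830 for Nr1i3, 0.720 for Nr1h4, -0.693 for Esrra and 0.627 for Nr5a2. It was -0.437 for Nr1i2 and -0.377 for Thra, with no adjusted permutation p under 0.05. Among enterocyte markers Lct ran from 12.45 to 13.42 over WT arrays, against 13.25 to 13.35 for Alpi. Enterocyte content and position along the gut were not told apart.

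The values of r were not alike over the arrays. The endothelium list mean lay between 8.12 and 8.29 on 6 arrays (K289R replicates 1 and 5 and WT replicates 1, 3, 4 and 7) and between 8.66 and 8.96 on the other 8. The 5 arrays with the highest enterocyte list means were all among those 6, which also held the lowest, WT replicate 1. With deviations taken within each set, an alternative added after seeing the data and given with no p, r with the enterocyte list ran from 0.806 to 0.957 in size over the 6 arrays. Among the other 8 arrays it was 0.660 for Nr1i3, 0.667 for Thra and -0.464 for Nr1h4. It was -0.369 for Esrra, -0.170 for Nr1i2 and -0.042 for Nr5a2. The enterocyte list mean spanned only 13.19 to 13.26 on these 8 arrays, against 13.15 to 13.38 on the 6. Over so narrow a span a low r cannot tell whether the relation is absent there.

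Other marker lists had relations as strong. Rora had r = 0.878 with the macrophage list (permutation p adjusted 0.0435, rho = 0.877, adjusted 0.0533) and r = 0.849 with the fibroblast list (permutation p adjusted 0.0579, rho = 0.864, adjusted 0.121). Within the sets its r with the macrophage list was 0.710 over the 6 arrays and 0.0609 over the 8, and with the fibroblast list 0.310 and -0.226. Nr2f1 had r = 0.820 with the pancreatic acinar list (permutation p adjusted 0.0435, rho = 0.807, adjusted 0.0660), and within the sets 0.684 over the 6 arrays and 0.943 over the 8. Both sides of this relation were dim. Nr2f1 averaged 7.14 in K289R and 7.15 in WT, intensities of 141.1 and 142.1 against array medians of 168.1 to 174.0. The 3 tested acinar markers averaged 6.77 to 7.54 in WT. A part of shared background in this r was not tested. Endothelium and distal list means split the arrays themselves, and correlations with them are read with that limit. An r beyond 0.7 occurred for 4 genes with the endothelium list and 2 with the distal list. Rora with the endothelium list had the largest r of all (0.928, permutation p adjusted 0.0435, rho = 0.908, adjusted 0.0502). Nr3c2 had r = -0.804 with that list and Nr1i3 had r = -0.830 with the distal list (permutation p adjusted 0.0579 for both).

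**Figure D3:**
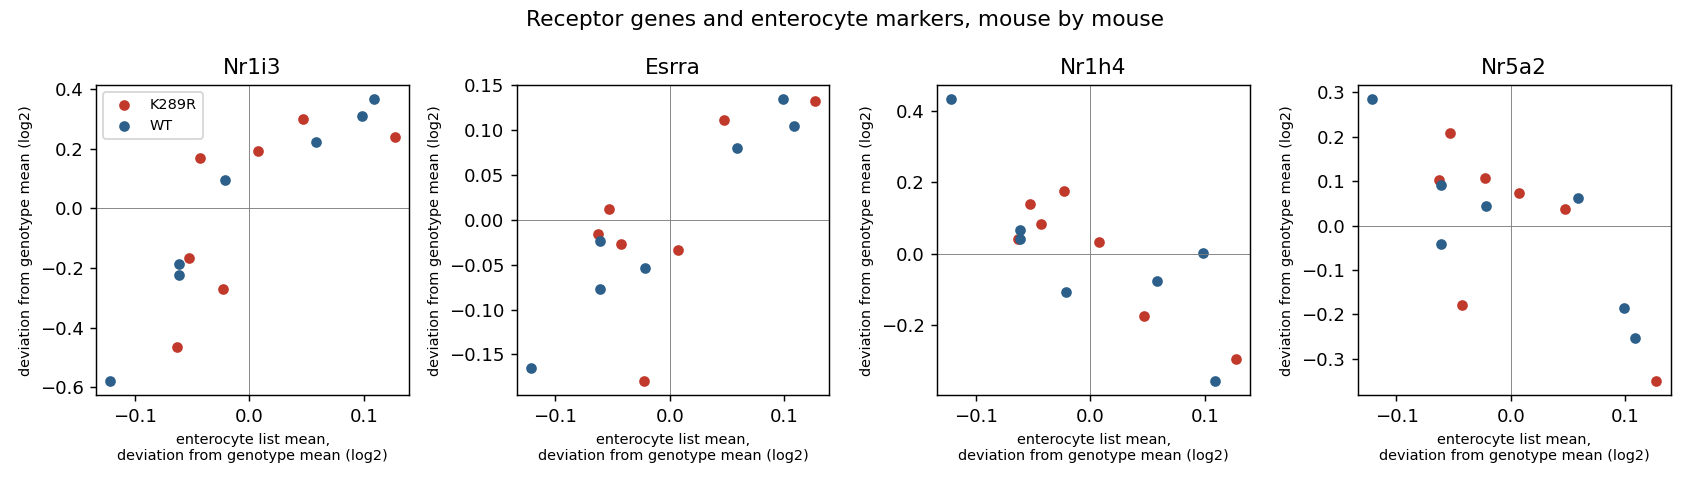
Deviation of Nr1i3, Esrra, Nr1h4 and Nr5a2 from the genotype mean (log2, vertical) against that of the enterocyte list mean (log2, horizontal), 7 K289R and 7 WT arrays. Over the 14 arrays r was 0.842 for Nr1i3, 0.826 for Esrra, -0.829 for Nr1h4 and -0.768 for Nr5a2. Among the 8 arrays with higher endothelium markers it was -0.369 for Esrra and -0.042 for Nr5a2. On those 8 the enterocyte list mean spanned only 13.19 to 13.26.

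Some extremes lay on the arrays with high Fabp6 and some on others, and they were not counted over all members. K289R replicate 5, without high Fabp6, held the lowest Nr5a2 value (9.83) and the highest Nr1i2 value (11.54). Nr1i3 stood at 9.70 and 9.50 on K289R replicates 2 and 7 and at 9.55 and 9.91 on WT replicates 1 and 6, and these were the lowest arrays of each genotype. On the other arrays it was between 9.80 and 10.27 in K289R and between 9.95 and 10.50 in WT. Nr1h4 and Nr5a2 had their highest value of all on WT replicate 1, at 9.51 and 10.60. Without the 4 arrays the differences were -0.10 (SE 0.103, adjusted p from limma 0.786) for Nr5a2 and -0.18 (SE 0.064, adjusted p from limma 0.677) for Esrra.

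Coregulators bridge receptors to the transcription machinery. Of 22 listed genes 20 were tested, and 0 passed the threshold or had an unadjusted p under 0.05, where 8.48% of all genes had such an unadjusted p. With 11 higher and 9 lower the median was 0.01. Tbl1xr1, a subunit of the corepressor complexes, differed by 0.09 (SE 0.047) and Sin3a, a corepressor scaffold, by 0.10 (SE 0.059). Ncoa1, a steroid receptor coactivator, differed by 0.06 (SE 0.045). The adjusted p from limma was 0.604 for Tbl1xr1, 0.646 for Sin3a and 0.716 for Ncoa1.

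Target genes of the receptors were read from 10 lists. Of the 58 different tested genes in them 0 passed limma's threshold, and 7 had an unadjusted p under 0.05 (12.1%, against 8.48% of all genes). The lists were chosen with earlier results of these data known, so this share may partly reflect the choice. List medians lay between -0.035 for PPAR targets and 0.05 for FXR targets. LRH-1 targets had a median of 0.01 over 8 genes, 5 higher and 3 lower. Besides Nr0b2, the smallest p values were those of Abcg5, a sterol exporter, at -0.06 (SE 0.063), and Cyp11a1, the first enzyme of steroid synthesis, at 0.05 (SE 0.058), with adjusted p values from limma of 0.790 and 0.821. HNF4 targets were the most level. Apoa1 differed by -0.02 (SE 0.038), and all 5 lay between -0.02 and 0.01.

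Single targets showed larger differences than any receptor. Fgf15, the bile acid induced hormone of ileal enterocytes, ran from 7.62 over a median of 9.58 to 10.56 in K289R and from 7.19 over a median of 7.36 to 8.63 in WT. The genotypes overlapped, and the difference was 1.64 (SE 0.405, adjusted p from limma 0.227). Of the 4 FXR targets tested, Slc51a, a bile acid exporter subunit, was at -0.16 (SE 0.169) and Fabp6 at -0.16 (SE 0.994). Among the 5 thyroid hormone targets Me1, the cytosolic malic enzyme, ran from 8.76 over a median of 9.20 to 10.1 in K289R and from 7.90 over a median of 8.38 to 9.22 in WT. Its difference was 0.94 (SE 0.207, adjusted p from limma 0.129), and it passed only without WT replicate 1, its highest WT array (1.09, adjusted p from limma 0.0364). Dio1, a deiodinase that activates thyroid hormone, went the other way. It ran from 10.33 over a median of 10.55 to 10.85 in K289R and from 10.49 over a median of 10.91 to 11.22 in WT. Its difference was -0.29 (SE 0.103, adjusted p from limma 0.436). Thrsp, a lipogenic thyroid hormone response gene, was at 0.11 (SE 0.121).

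PXR and CAR targets were split. Cyp2c55, a cytochrome P450, differed by 0.36 (SE 0.145, adjusted p from limma 0.486) and Cyp3a11, another, by 0.22 (SE 0.134). Abcb1a, a drug efflux pump, was at -0.20 (SE 0.154). LXR targets had a median of 0.04 over 8 genes, with Scd1, a fatty acid desaturase, at 0.56 (SE 0.250, adjusted p from limma 0.547) and Srebf1, the regulator of lipogenesis, at -0.11 (SE 0.074). PPAR targets were at most 0.17 from 0 in size, with Plin2, a lipid droplet coat protein, at -0.10 (SE 0.058) and Ehhadh, a peroxisomal enzyme, at -0.12 (SE 0.098). Of 4 VDR targets 1 was higher and 3 lower, with Cyp24a1, which degrades active vitamin D, at -0.12 (SE 0.062). Glucocorticoid receptor targets had a median of 0.03, with Tsc22d3 at -0.15 (SE 0.085), and Zbtb16 at 0.17 (SE 0.138). The lowest adjusted p of these genes with limma was that of Cyp2c55.

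**Figure D4:**
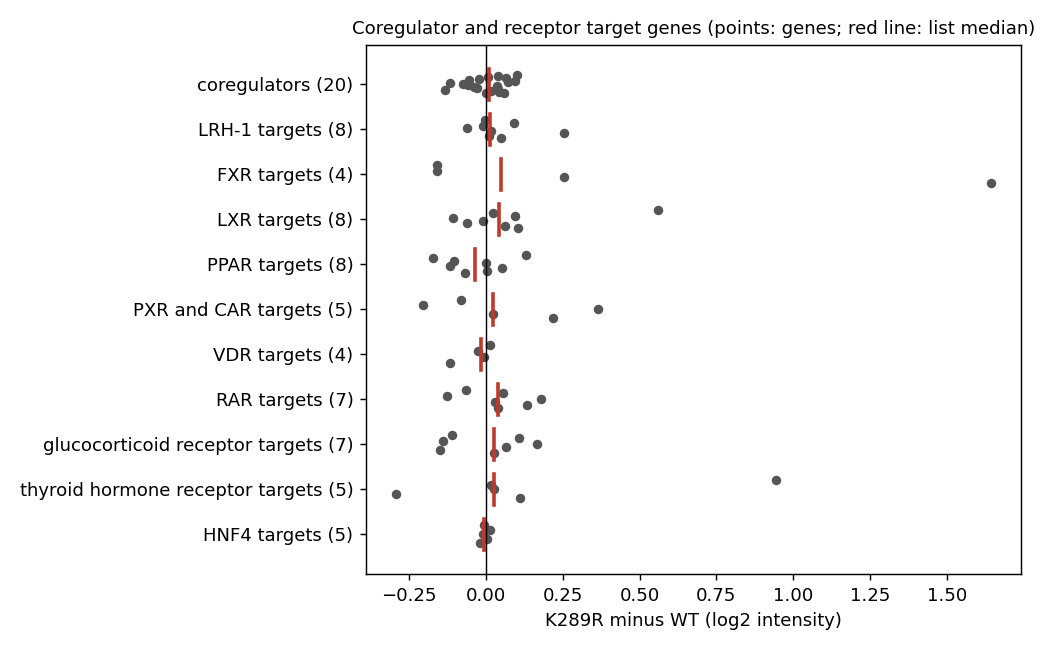
Difference in log2 intensity, K289R minus WT, of the tested coregulators and of the tested genes in 10 receptor target lists, with the number of genes in brackets. Points are genes and red lines list medians. List medians lie close to 0, and Fgf15 (1.64), Me1 (0.94) and Scd1 (0.56) stand farthest from it.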

How the data were processed

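Jejunal RNA of 14 mice was measured on Affymetrix arrays. The authors' deposited table gives intensity values on a linear scale for 41345 probe sets, with array medians of 168.1 to 174.0. Affymetrix Expression Console is named in the submitters' processing notes, but not its version or settings (not given in the sources used here). Residual background would shrink differences of dim genes.

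Values were log2-transformed and not normalized further. Of the probe sets 23521 had 1 gene symbol in the platform annotation, 1814 had several (not used), and 16010 had no name here. This gave 22180 genes, of which 18010 with a mean at or above a log2 limit of 6.25 (the lower quartile over probe sets) were tested. K289R minus WT was fitted with limma 3.58.1 in R 4.3.3 (lmFit, eBayes, 2-sided), with Benjamini-Hochberg adjusted p-values over the 18010 genes and a limit of 0.05. Single genes also had an exact permutation test over 3432 splits. The steps were tested on simulated data. Replicate numbers come from the titles and were not treated as pairs, since same-numbered arrays deviated together with r from -0.151 to 0.169. Samples are labelled as biological replicates, and which mice shared a cage, litter or scan day is not given.

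Members and lists were chosen with earlier results of these data known. Named genes are Nr5a2, the members with an unadjusted p under 0.05, the 10 members with the smallest p, and up to 3 genes per target list with the smallest p. The other members are given by level or difference. Alternatives covered normalization, filter, probe sets, variance model, array weights, replicate block, covariates, left-out arrays and a threshold of 0.1. Correlations with marker lists were also taken within 2 sets of arrays separated at the widest gap of the endothelium list mean.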

Additional observations from a re-analysis of the deposited data

Results flagged for a closer look

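Esrrb on K289R replicate 6 stood at 6.88, while the next lowest K289R array was at 7.12, a gap that took up 0.656 of the range of the 7 arrays. Among 76 sets of 7 arrays (38 genes in 2 genotypes) this was the 1 set with such a gap, where chance gives about 1 in 20, or 3.8 sets. The cause was not tested.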

How the results depend on the processing

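In 25 alternative fits, 0 nuclear receptor genes and 0 coregulators passed the threshold, also at an adjusted p under 0.1, and over 944 values of single receptor genes the lowest adjusted p from limma was 0.183. The number of receptor genes with an unadjusted p under 0.05, counted after the data were seen, was 4, ran from 3 to 5 in other settings, and was 2 to 5 with 1 array left out, with 2 without WT replicate 4. The median difference of nuclear receptor genes ran from -0.0393 to -0.0184 with 1 array left out (-0.0191 without K289R replicate 3 and -0.0184 without K289R replicate 6) and was -0.0608 with the smooth muscle covariate. Target genes past the threshold numbered 0 to 1 with 1 array left out, the 1 being Me1 without WT replicate 1. Over all genes, 8 passed, 14 with array weights, 0 with a replicate block, 2 with the smooth muscle covariate, 5 without the arrays with high Fabp6, 18 at an adjusted p under 0.1 and 4 to 14 with 1 array left out, where the lowest count was without K289R replicate 4, WT replicate 3 or WT replicate 4 and the highest without K289R replicate 5. With the replicate block 0 of all genes passed, so that fit says nothing about receptor genes in particular. The causes were not tested. Dim genes such as Pgr and Rorb, close to the limit, are read with least certainty.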
